A study of Cavia porcellus with 11 samples.

Results

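Cochleae of guinea pigs (Cavia porcellus) given cisplatin plus STB, measured in 3 RNA-seq libraries, were compared with cochleae of the control group without treatment, measured in 4 libraries. These 7 libraries were chosen by their labels from the 11 of the series. The other 4 libraries came from cochleae given cisplatin without STB, and a group given STB alone was not among the samples analysed here. STB is not spelled out in the labels, and the series title speaks of Schisantherin B, which is known as a plant lignan. The sources used here give no strain, age, sex, dose, route or time after treatment, and no number of animals per library. Whether the libraries within a group stand for different animals is not stated either, so the p-values below speak only of the variation from library to library, which may be technical.

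Cisplatin is a platinum drug that cross-links DNA, and it enters the cochlea and harms outer hair cells, the stria vascularis and spiral ganglion neurons. Hair cells turn sound into electrical signals, the stria vascularis pumps potassium into the endolymph, supporting cells and fibrocytes return that potassium, and spiral ganglion neurons carry the signal to the brain. Injury by cisplatin is known to engage DNA repair, the p53 response, oxidative stress, inflammation and cell death. The comparison of treated with untreated tissue asks which genes still differed when STB was given with cisplatin, and which were shown to be level with untreated tissue.

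The cisplatin plus STB libraries held 15183801 to 17967896 counts and the control libraries 14338894 to 18508296. Coch, which encodes cochlin, the abundant secreted protein of inner ear fibrocytes, took 3.00% to 3.74% of counts in the cisplatin plus STB libraries and 2.79% to 4.04% in control. On the first principal component of the 7 libraries (38.8% of the variance), cisplatin plus STB replicate 2 lay beside control replicate 2 at one end, and cisplatin plus STB replicate 3 beside control replicate 4 at the other. That axis did not separate the groups. Each group held the defining markers of hair cells, supporting cells, fibrocytes, strial cells, neurons and Schwann cells, while the hair cell gene Atoh1 and the supporting cell gene Hes5 were listed at 0 in all libraries. Ftl and Rps28, which every cell uses, were also listed at 0, so a listed 0 is not read as absence. Reads come from whole tissue, so fewer cells of a type and less RNA per cell cannot be told apart in any value below.

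No gene differed between cisplatin plus STB and control past the threshold. Of 15384 genes tested, 0 (0%) had an adjusted p under 0.05 by edgeR's quasi-likelihood test with Benjamini-Hochberg adjustment, 0 by DESeq2 and 0 by limma-voom with sample quality weights. Without adjustment, 165 genes (1.07%) had p under 0.05 by edgeR, 200 by DESeq2 and 1183 by limma-voom. When no gene differs, a threshold of 0.05 passes about 0.05 of the genes tested. The edgeR and DESeq2 counts lay below that share and the limma-voom count above it. Genes named below for an unadjusted p or for groups without overlap are therefore values, not shown differences. Of the 165, 61 (0.397%) were higher and 104 (0.676%) lower with cisplatin plus STB. The libraries of the 2 groups did not overlap for 157 genes that were higher (1.02%) and 214 that were lower (1.39%). Over all genes tested, 7547 were higher and 7837 lower. The median log2 fold change was -0.003, and the median size of change was 0.105. Without cisplatin plus STB replicate 3, edgeR called 2 genes, LOC134471432 and Hoga1, and without each of the 6 other libraries it called 0.

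A p that misses the threshold does not show that levels are equal, so equality was tested on its own. A gene was called equal when 2 one-sided edgeR quasi-likelihood tests placed its fold change inside 1.5-fold in both directions (0.585 on the log2 scale), with Benjamini-Hochberg adjustment over all genes. By this test 8326 of 15384 genes (54.1%) were equal within 1.5-fold to untreated cochlea, and 12534 (81.5%) within 2-fold. None was equal within 1.2-fold, a bound smaller than these libraries can resolve. The count was 5286 without cisplatin plus STB replicate 1 and 5248 without replicate 2. A set of 4017 genes (26.1%) was equal within 1.5-fold in the fit of all libraries and also with each of the 7 libraries left out in turn, and "held in all 7" below refers to these repeats. The remaining genes were mostly undecided rather than different: 6910 were neither equal within 1.5-fold nor at an unadjusted p under 0.05, and for 1131 the 95% interval reached past 2-fold both ways.

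How many genes could be called equal followed their level. FPKM, a count scaled by exon length and library total, was used to rank the genes into quintiles. In the lowest quintile 5.46% were equal, with a median standard error (SE) of the log2 fold change of 0.46. The shares in the next quintiles were 39.5%, 65.9%, 78.2% and 81.6%, with median SEs of 0.25, 0.19, 0.16 and 0.16. A low share of equal genes in a list of weakly expressed genes therefore gives no difference from control, only less precision.

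**Figure D1:**
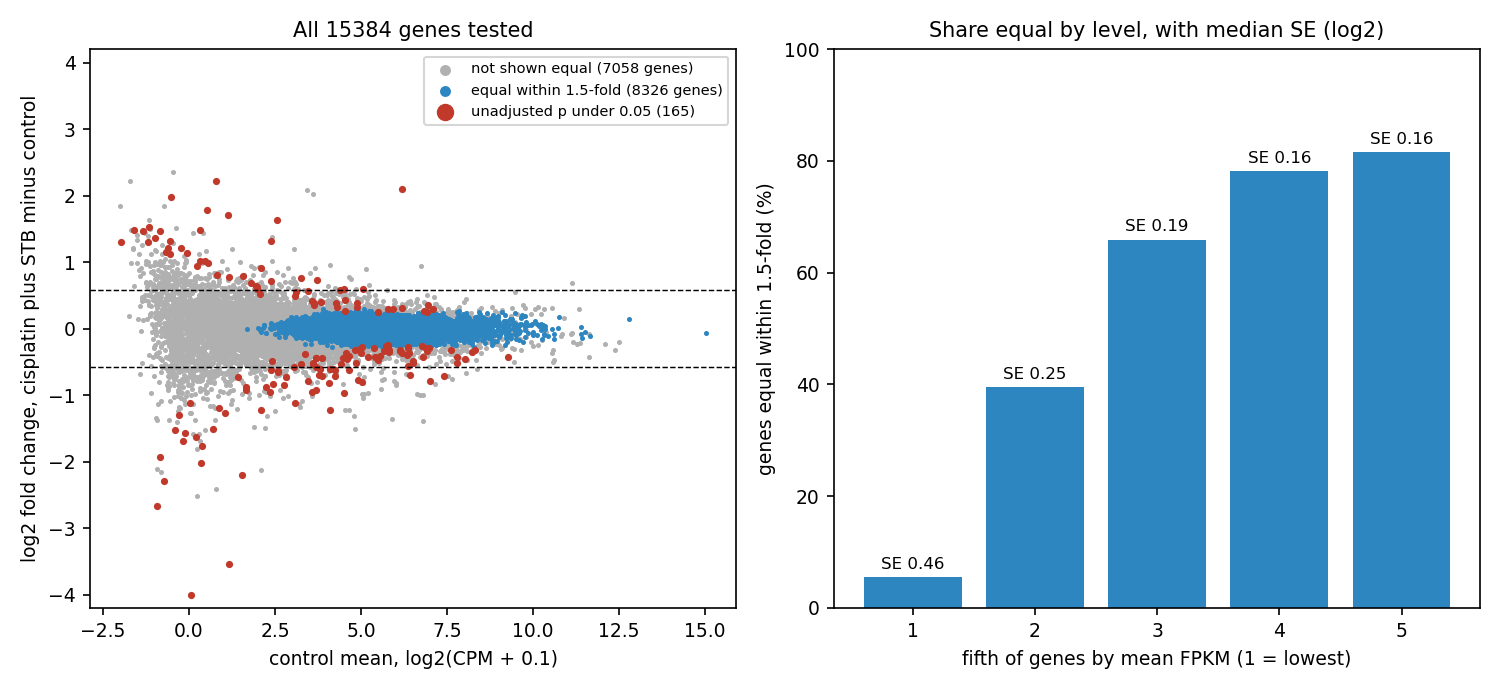
Left, log2 fold change of cisplatin plus STB minus control against the control mean on a log2(CPM + 0.1) scale, 1 point per gene, with dashed lines at 1.5-fold and changes past 4 drawn at 4. Genes equal within 1.5-fold (8326, blue) lie around 0 and genes at an unadjusted p under 0.05 (165, red, of which 17 were also equal) on both sides. Right, percent of genes equal in each quintile of mean FPKM, 5.46% in the lowest and 81.6% in the highest, with the median SE above each bar.

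In the fit of all libraries, most genes of the general machinery of the cell were level with untreated tissue. Of 35 proteasome subunits, which degrade ubiquitin-tagged proteins, 33 were equal within 1.5-fold and 20 held in all 7, with a median log2 fold change of 0.07. Psmd13, a subunit of the regulatory particle, had 208, 201 and 182 CPM with cisplatin plus STB, against 211, 175, 188 and 165 CPM in control. It differed by 0.09 on the log2 scale (SE 0.12, edgeR adjusted p of equality 0.00729), and the libraries of both groups were interleaved. Of 56 nuclear genes of oxidative phosphorylation, the mitochondrial chain that makes ATP, 51 were equal and 22 held in all 7, with a median of 0.03. Atp5f1a, the alpha subunit of ATP synthase, had 527, 579 and 481 CPM, against 526, 578, 492 and 444 CPM in control (log2 fold change 0.05, SE 0.13). Of 76 cytosolic ribosomal proteins 68 were equal, but only 12 held in all 7. That is 15.8%, below the 26.1% of all genes, where the proteasome and oxidative phosphorylation lists had 57.1% and 39.3%. The median of the ribosomal proteins was 0.08, and it was -0.02 without cisplatin plus STB replicate 2 and 0.20 without control replicate 1. Among them Rps3a, a protein of the small subunit, had 1158, 1247 and 1093 CPM with cisplatin plus STB, against 1410, 903, 1131 and 991 CPM in control, and its equality held in all 7. Rpl7 was not shown equal, at 1543, 1618 and 1487 CPM against 1584, 1082, 1409 and 1001 CPM (0.29, SE 0.17). These lists are abundant, with median FPKM of 63.5, 77.5 and 578 for the proteasome, oxidative phosphorylation and ribosomal lists, and shares of equal genes should be read against the 81.6% of the highest quintile, which begins at 25.3 FPKM.

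The most abundant genes of the cochlea include secreted proteins of the matrix and the machinery of translation. Coch, the most abundant gene by FPKM, had 30881, 28465 and 37653 CPM with cisplatin plus STB, against 36828, 27153, 30203 and 40828 CPM in control. The ranges overlapped, and Coch differed by -0.06 on the log2 scale (SE 0.21, edgeR adjusted p of equality 0.0297). This call held in 2 of the 7 repeats, those without control replicate 1 or control replicate 4. Eef1a1, the translation factor that brings aminoacyl-tRNA to the ribosome, had 7713, 7850 and 7844 CPM, against 7507, 6178, 7335 and 7183 CPM in control. All 3 values of Eef1a1 were above the 4 of control, by a log2 fold change of 0.15 (SE 0.14) that stayed inside the bound in all 7 repeats. Psap, the precursor of lysosomal saposins, had 3083, 2681 and 2697 CPM, against 2900, 2912, 3189 and 2737 CPM in control (-0.06, SE 0.13), and Rps27 was also equal in all 7. The most abundant equal genes also included Apod, Tpt1, Rps3a, Rps24, Rpl23a, Rps6 and Col9a2, with log2 fold changes of -0.14 for Col9a2 to 0.20 for Rps6. Their equality held in all 7 repeats for Rps3a, in 5 for Rps24 and in 3 for Rpl23a. It held in only 2 of 7 for each of Apod, Tpt1, Rps6 and Col9a2. Of the 50 most abundant genes 27 were equal within 1.5-fold and 47 within 2-fold, where 81.6% of the highest quintile were equal within 1.5-fold. The 3 others included Ocm, named after its values were seen, and Hsp90aa1, whose libraries varied widely within a group. Ocm, the calcium buffer of outer hair cells, had 1531, 727 and 1669 CPM with cisplatin plus STB, against 1091, 1401, 1438 and 343 CPM in control.

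Genes that repair platinum damage and antioxidant genes had median changes near 0. Of 36 genes that repair platinum adducts or cross-links in DNA, 28 (77.8%) were equal within 1.5-fold and 15 held in all 7, with 19 members higher, 17 lower and a median of 0.00. Their median FPKM of 7.02 lies in the quintile with 65.9% equal. Ddb1, a subunit of a complex that recognises damaged DNA, had 185, 204 and 166 CPM, against 176, 191, 199 and 188 CPM in control (-0.02, SE 0.11, edgeR adjusted p of equality 0.0068). Hmgb1, a chromatin protein that binds cisplatin adducts, had 471, 474 and 481 CPM, against 517, 391, 431 and 431 CPM in control (0.10, SE 0.12). Both genes held in all 7, and for both the 2 groups overlapped. Of 32 antioxidant genes and targets of the stress factor NRF2, 24 (75%) were equal and 11 held in all 7 (median -0.04). Their median FPKM of 69.8 lies in the quintile with 81.6% equal. The cytosolic superoxide dismutase Sod1 had 351, 329 and 318 CPM, against 356, 319, 352 and 302 CPM in control (0.00, SE 0.12). The mitochondrial Sod2 had 284, 260 and 244 CPM, against 266, 208, 212 and 218 CPM in control, a log2 fold change of 0.22 (SE 0.12) that lay within the bound in all 7. Neither differed from control past the edgeR threshold.

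Targets of p53, which is activated by DNA damage, lay on both sides of control. Of 29 tested, 14 (48.3%) were equal within 1.5-fold, 7 of them in all 7 repeats, and the median was -0.07 with 10 higher and 19 lower. This share, and those of the cell death (53.1%) and cisplatin transport (52.9%) lists that follow, are near the 54.1% of all genes. At their own levels the shares read differently. The p53 list, with a median FPKM of 11.6, lies at the border of the quintiles with 65.9% and 78.2% equal. The cell death list (7.66) lies in the quintile with 65.9% and the cisplatin transport list (3.26) in that with 39.5%. Cdkn1a, the cell cycle inhibitor p21, had 113, 98.5 and 184 CPM with cisplatin plus STB, against 174, 139, 150 and 186 CPM in control. The groups overlapped, and Cdkn1a was shown neither different nor equal (-0.30, SE 0.24). Bax, a pore former of apoptosis, had 27.7, 24.4 and 17.0 CPM, against 26.5, 21.9, 26.9 and 21.6 CPM in control (-0.07, SE 0.20) and was equal, in 3 of 7 repeats. Bax overlaps genes on the opposite strand, and reads of overlapping genes cannot be told apart here, since the strand setting of counting is unknown. The one p53 target at an unadjusted p under 0.05 was Sesn1, a stress-induced sestrin that is also on the list of glucocorticoid-responsive genes. Of 32 genes of the cell death machinery 17 were equal and 6 held in all 7 (median -0.02). Those 6 are 18.8% of the list, against 24.1% for the p53 list and 26.1% of all genes. Among them Bcl2l2, which protects from apoptosis, had 116, 112 and 122 CPM, against 98.7, 137, 109 and 132 CPM in control (-0.03, SE 0.15). Of 17 genes of cisplatin transport and detoxification 9 were equal. The volume-regulated anion channel subunit Lrrc8d and the export pump Abcc5 were among the 3 that held in all 7, with log2 fold changes of -0.03 (SE 0.16) and -0.10 (SE 0.12).

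The title of the series also mentions Cnpy2, a canopy family gene whose product resides in the endoplasmic reticulum, and which spans 49350385 to 49354027 (minus strand) of its scaffold. Cnpy2 had 107, 100 and 84.0 CPM with cisplatin plus STB, against 104, 83.3, 91.3 and 88.7 CPM in control. The libraries were interleaved, with a log2 fold change of 0.08 (SE 0.12, 95% interval -0.17 to 0.34). Cnpy2 was equal within 1.5-fold (edgeR adjusted p of equality 0.0070), and in all 7 repeats. Cnpy3 (0.04, SE 0.17) and Cnpy4 (0.14, SE 0.19), the other canopy genes tested, were equal as well, in 6 and 2 of the 7 repeats. Of 30 genes of the unfolded protein response, which relieves stress of the endoplasmic reticulum, 17 (56.7%) were equal and 22 were higher, with a median of 0.08. Their median FPKM of 35.7 lies in the quintile with 81.6% equal. The median log2 fold change was -0.10 without cisplatin plus STB replicate 3, the library in which chaperones were high. In that library Hsp90b1, the chaperone GRP94, had 1677 CPM and the other 2 had 737 and 694 CPM, against 770, 801, 707 and 548 CPM in control.

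Markers of the cochlear cell types gave few firm calls in either direction. Gjb2 and Gjb6 encode the connexins that couple supporting cells. Gjb2 had 1911, 1407 and 1771 CPM with cisplatin plus STB, against 1796, 1549, 1665 and 1764 CPM in control, a log2 fold change of 0.00 (SE 0.17) with equality in all 7. Gjb6 had 1260, 810 and 882 CPM, against 1044, 883, 979 and 1187 CPM in control (-0.06, SE 0.18), with equality in 6 of 7. Among 18 supporting cell markers 5 (27.8%) were equal and 0 were at an unadjusted p under 0.05. Among 13 fibrocyte markers 6 (46.2%) were equal, with none of these 6 in all 7. The median FPKM of these lists, 16 and 143, lies in the quintiles with 78.2% and 81.6% equal. Slc4a11, a transporter of fibrocytes, had 892, 969 and 734 CPM, against 696, 663, 908 and 1232 CPM in control, a log2 fold change of -0.02 (SE 0.22) whose equality held in 1 of 7. Of 28 genes of ion transport in the cochlear fluids 9 (32.1%) were equal and 1, Wnk4, was at an unadjusted p under 0.05. That list has a median FPKM of 26.9, also in the quintile with 81.6% equal.

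Hair cell markers lay in overlapping ranges in both groups, and 1 of 21 (4.76%) could be called equal. Their median FPKM of 7.44 lies in the quintile with 65.9% equal. The median SE of these markers was 0.38, and that of the quintile 0.19. Of 21 tested, 19 were higher with cisplatin plus STB and 2 lower, with a median of 0.22 and 0 at an unadjusted p under 0.05. The summed level of the list was 2710 to 3885 CPM with cisplatin plus STB and 1539 to 4386 CPM in control. The median was 0.05 without cisplatin plus STB replicate 1 and also 0.05 without control replicate 4. It was 0.38 without control replicate 2 and 0.42 without cisplatin plus STB replicate 2, where 3 markers were higher at an unadjusted p under 0.05. Myo7a, a stereocilia motor, had 77.5, 45.1 and 69.1 CPM, against 47.3, 57.6, 66.8 and 33.7 CPM in control (0.32, SE 0.24). Slc26a5, the outer hair cell motor prestin, had 14.6, 6.34 and 17.9 CPM, against 7.57, 14.99, 10.5 and 5.30 CPM in control (0.43, SE 0.38). For both genes the groups overlapped in part. The 77.5 and 69.1 CPM of Myo7a and the 17.9 CPM of Slc26a5 lay above all control libraries. The other cisplatin plus STB values of both genes lay within the control range. The 1 marker shown equal was Myo6, the myosin of the hair cell base and stereocilia, at 534, 310 and 526 CPM against 419, 398, 420 and 495 CPM (0.08, SE 0.20, equality in 3 of 7).

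**Figure D2:**
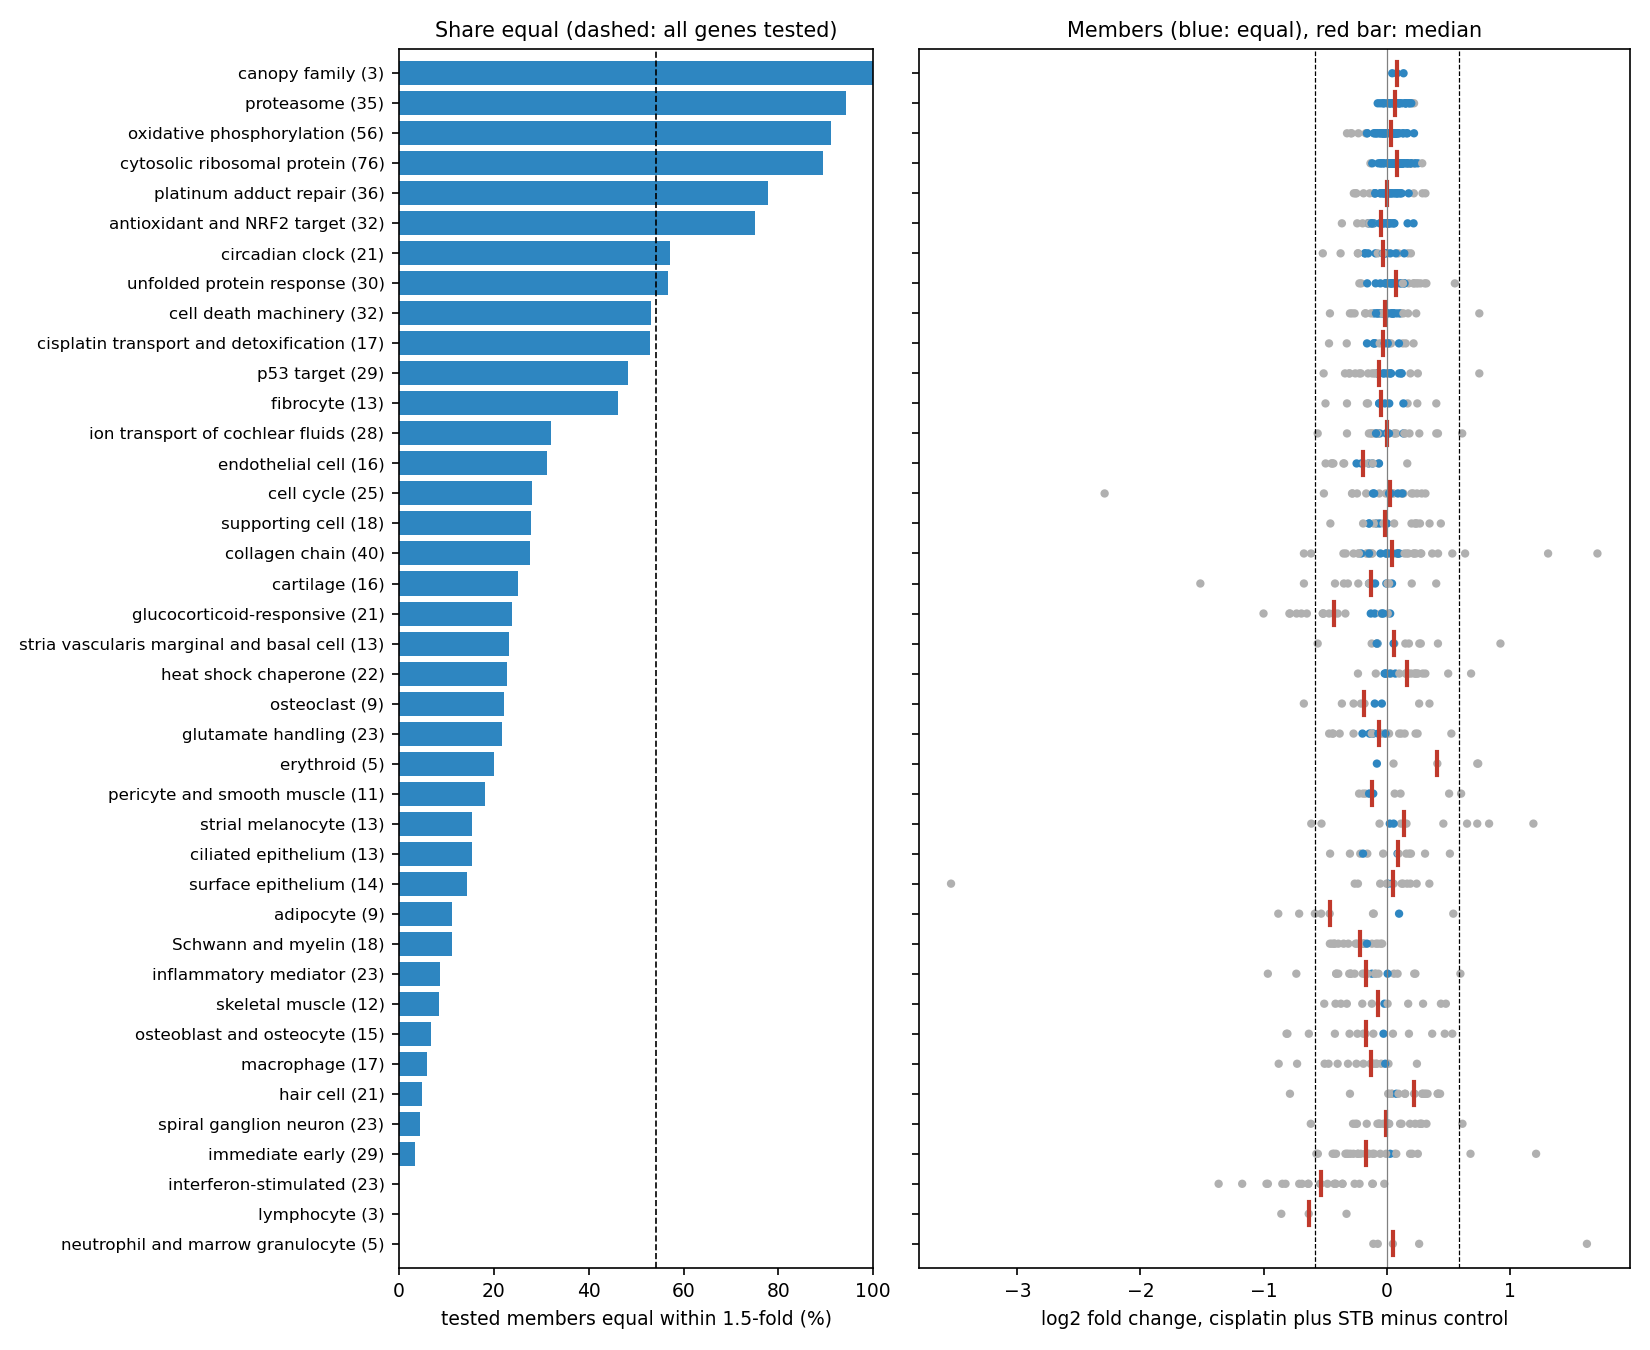
Left, percent of tested members of each gene list that were equal within 1.5-fold to control, with the number tested in brackets and all genes (54.1%) as a dashed line. Right, log2 fold change of each member, cisplatin plus STB minus control, blue where equal, with the list median in red and dashed lines at 1.5-fold. Proteasome, oxidative phosphorylation and ribosomal lists lie close to 0, and lists of neuronal, hair cell, immune and interferon genes hold few or no equal members.

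Neuronal genes varied so much between libraries of the same group that the comparison was imprecise. Across the 23 spiral ganglion neuron markers the median was 0.00 with a median SE of 0.82, and 1 of them (4.35%) was equal. Their median FPKM of 19.5 lies in the quintile with 78.2% equal. The median log2 fold change was -0.56 without cisplatin plus STB replicate 2 and 1.13 without control replicate 2. Nefh, the heavy neurofilament chain, had 185, 902 and 44.5 CPM with cisplatin plus STB, against 59.5, 1125, 166 and 49.6 CPM in control. Replicate 2 of each group was the highest library, and the lowest of each group stood many times below it. Nefh was named after its values were seen. The exception was Gap43, a growth-associated protein of axons also made by Schwann cells, at 49.3, 45.8 and 50.2 CPM against 55.8, 44.5, 50.3 and 41.1 CPM (0.02, SE 0.16, equality in all 7). The 18 Schwann cell and myelin genes were all lower with cisplatin plus STB, with a median of -0.22 and 0 at an unadjusted p under 0.05. Of the 18, 2 (11.1%) were equal, and the median FPKM of the list, 64.2, lies in the quintile with 81.6% equal. Without control replicate 1, 12 of the 18 were lower and the median was -0.10, and without cisplatin plus STB replicate 2 all 18 were lower and the median was -0.37. With the replicate number as a block, 17 were lower, 9 of them at an unadjusted p under 0.05, with a median of -0.46. The numbers are not stated to pair the libraries, and the data did not settle whether they do. Erbb3, the neuregulin receptor of Schwann cells, had 279, 259 and 256 CPM, against 294, 306, 308 and 298 CPM in control. The groups of Erbb3 did not overlap, yet its log2 fold change of -0.19 (SE 0.12) lay within 1.5-fold in all 7.

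Most endothelial and macrophage markers were lower with cisplatin plus STB, and 0 of them passed the edgeR adjustment. Other vessel and immune lists were mixed, with 4 pericyte and smooth muscle markers higher and 7 lower, and 3 neutrophil markers higher and 2 lower. Of 16 endothelial markers 15 were lower (median -0.20), 5 (31.2%) were equal and 0 were at an unadjusted p under 0.05. Their median FPKM of 9.15 lies in the quintile with 65.9% equal. Emcn, a glycoprotein of capillary endothelium, was equal at 310, 336 and 260 CPM against 347, 249, 268 and 399 CPM. Of 17 macrophage markers 15 were lower (median -0.13), but 9 of 17 without cisplatin plus STB replicate 1 and 9 of 17 without its replicate 3. Of these markers 1 (5.88%) was equal, where the quintile of their median FPKM, 3.36, has 39.5%. The macrophage scavenger receptor Cd163 was the 1 marker at an unadjusted p under 0.05. Cd163 had 1.62, 2.01 and 1.32 CPM with cisplatin plus STB, against 2.34, 3.62, 2.47 and 3.72 CPM in control, with no overlap (-0.88, SE 0.38). Summed macrophage markers amounted to 96.4 to 173 CPM with cisplatin plus STB and 131 to 146 CPM in control, and only 3 of 19 lymphocyte markers passed the filter on low counts. Of 23 inflammatory mediators 17 were lower (median -0.17, 0 at an unadjusted p under 0.05). The 2 equal mediators (8.7%) were the chemokine Cxcl12, in 5 of 7 repeats, and Rel, a subunit of NF-kappaB, in 0 of 7. The median FPKM of that list, 2.66, also lies in the quintile with 39.5% equal.

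Genes of the stria vascularis, the matrix and the remaining tissues gave few calls. Of 13 markers of strial marginal and basal cells 3 (23.1%) were equal, with a median of 0.06. Wnk4 was the 1 at an unadjusted p under 0.05. The median FPKM of this list, 17.7, lies in the quintile with 78.2% equal. Of 13 melanocyte markers, which mark the strial intermediate cells, 10 were higher and 2 (15.4%) equal (median 0.14). These markers have a median FPKM of 4.9, in the quintile with 39.5% equal. Among them Mitf, the master transcription factor of melanocytes, was equal, in 3 of 7 repeats, at 36.8, 31.5 and 34.9 CPM, against 29.3, 28.7, 29.6 and 47.7 CPM in control (0.02, SE 0.22). Pmel, a protein of pigment granule fibrils, was lower at an unadjusted p under 0.05, with 13.2, 12.8 and 18.1 CPM against 26.0, 22.7, 22.6 and 13.9 CPM (-0.53, SE 0.23). Only control replicate 4 overlapped the cisplatin plus STB libraries for Pmel.

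Of 40 collagen chains 11 (27.5%) were equal and 2, Col23a1 and Col6a5, were higher at an unadjusted p under 0.05 (median 0.04). Their median FPKM of 6.01 lies in the quintile with 65.9% equal. Col2a1, the fibrillar collagen of cartilage and of the tectorial membrane, was equal at 244, 406 and 363 CPM, against 333, 284, 292 and 402 CPM in control (0.04, SE 0.18). Of 29 immediate early genes, which respond to stimuli within minutes, 21 were lower (median -0.17). The 1 (3.45%) that was equal, in 1 of 7 repeats, was the phosphatase Dusp1. The median FPKM of this list, 6.33, lies in the quintile with 65.9% equal. Nr4a3, an orphan nuclear receptor, was the 1 at an unadjusted p under 0.05, at 1.10, 1.00 and 3.13 CPM against 1.10, 1.06, 0.520 and 0.328 CPM (1.21, SE 0.52). Of 25 cell cycle genes 7 (28%) were equal (median 0.03), where the quintile of their median FPKM, 2.15, has 39.5%. Bub1b, a kinase of the spindle checkpoint, was the 1 at an unadjusted p under 0.05, at 0.0646, 0.211 and 0 CPM against 0.688, 0.0625, 0.650 and 0.601 CPM (-2.29, SE 0.99), with overlap through control replicate 2. Of 23 genes of glutamate handling 5 (21.7%) were equal (median -0.06), where the quintile of their median FPKM, 5.01, also has 39.5%. The lists for pericytes, osteoblasts, osteoclasts, skeletal muscle, adipocytes, ciliated epithelium, erythroid cells, neutrophils and lymphocytes held 0 to 2 equal members each and 0 at an unadjusted p under 0.05. Their medians lay between -0.63 for the 3 lymphocyte markers and 0.41 for the 5 erythroid markers.

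Genes that were lower in every cisplatin plus STB library are given as values only, by ascending p, since none passed the adjustment. Wnk4, a kinase that controls sodium, chloride and potassium transport in epithelia, lies at 94520826 to 94532548 on the plus strand of its scaffold in the files' coordinates. Wnk4 had 50.1, 57.4 and 61.6 CPM with cisplatin plus STB, against 96.7, 67.6, 78.5 and 90.1 CPM in control. Wnk4 differed by -0.56 on the log2 scale (SE 0.14, unadjusted p = 0.0018 and adjusted p = 1.00 by edgeR's quasi-likelihood test). Per1, a repressor of the circadian clock that also responds to glucocorticoids, had 138, 159 and 171 CPM, against 257, 209, 243 and 185 CPM in control (-0.52, SE 0.14). Prc1, which bundles microtubules when cells divide, had 0.129, 0.528 and 0.361 CPM, against 1.17, 1.31, 1.17 and 1.09 CPM in control (-1.76, SE 0.47). Prc1 is carried by few reads and overlaps Rccd1 on the opposite strand. Abtb2, an ankyrin repeat protein, stood apart by its narrow spread, with 28.9, 33.6 and 32.0 CPM against 42.4, 42.5, 42.9 and 41.5 CPM (-0.42, SE 0.12). Cd320, the cell surface receptor for vitamin B12 bound to transcobalamin, had 11.4, 13.3 and 11.8 CPM, against 20.2, 16.9, 19.2 and 18.7 CPM in control (-0.62, SE 0.18). Zic1, a zinc finger transcription factor, had 18.9, 12.7 and 17.5 CPM, against 24.6, 26.3, 20.7 and 29.2 CPM in control (-0.63, SE 0.18). By the rule that chose these 6 genes, the highest cisplatin plus STB library stayed below the lowest control library. The other 6 were the mitochondrial protein Echdc2 (-0.71), Lrcol1 (-0.83), the potassium channel subunit Lrrc26 (-0.78), the transcription factor Klf13 (-0.40), the peroxisomal membrane protein Pxmp2 (-0.71) and the coactivator Cited4 (-0.96). Lrrc26 overlaps Grin1, and Klf13 an uncharacterised gene, on the opposite strand. Acan, the aggrecan of cartilage, was also lower in all 3 libraries, at 88.0, 75.2 and 87.8 CPM against 97.1, 111, 104 and 136 CPM (-0.42, SE 0.14). It was the 1 of 16 cartilage markers at an unadjusted p under 0.05.

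The 12 genes of smallest p among those higher in every cisplatin plus STB library are given in the same way. Bco2, a mitochondrial enzyme that cleaves carotenoids, had 34.8, 27.9 and 40.3 CPM, against 23.4, 23.6, 27.0 and 16.9 CPM in control. Bco2 differed by 0.60 on the log2 scale (SE 0.18, unadjusted p = 0.0070 and adjusted p = 1.00 by edgeR's quasi-likelihood test). Thbs4, a thrombospondin of the extracellular matrix, had 32.1, 28.4 and 32.5 CPM, against 20.3, 20.5, 23.9 and 18.3 CPM in control (0.58, SE 0.18). These were the only 2 of the 12 with more than 20 CPM in every cisplatin plus STB library. Col23a1, a collagen of the cell membrane, had 10.02, 19.9 and 7.95 CPM, against 4.89, 5.06, 6.76 and 3.66 CPM in control (1.31, SE 0.44). Adora2a, the adenosine A2A receptor, had 2.52, 3.28 and 1.99 CPM, against 1.24, 1.56, 1.24 and 1.09 CPM in control (1.02, SE 0.35). S1pr5, a receptor for sphingosine 1-phosphate, had 2.71, 2.69 and 1.63 CPM, against 1.17, 0.812, 1.17 and 1.48 CPM in control (1.01, SE 0.40). By the same rule, libraries of both groups stayed apart for each of these, with the nearest pair on the log2 scale in Bco2, at 27.9 and 27.0 CPM. The others were Smim5 (0.99), the cilium protein Mns1 (1.14), Vsig1 (1.98), the epithelial transcription factor Ovol1 (1.46), CUNH2orf76 (0.72), the IgM receptor Fcmr (1.36) and Btbd18 (1.12). Smim5, Mns1 and CUNH2orf76 overlap genes on the opposite strand.

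**Figure D3:**
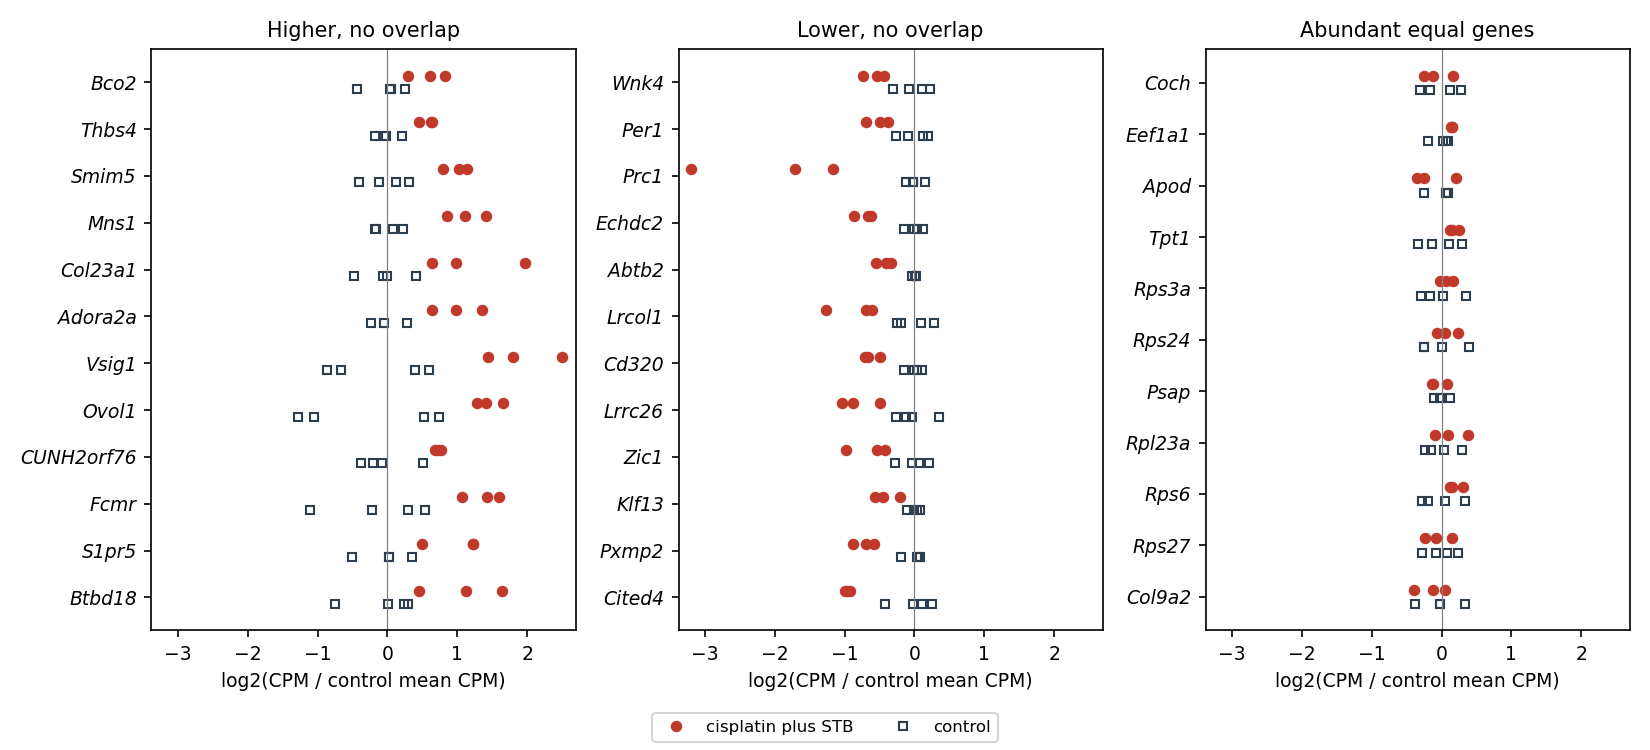
Values of each library (cisplatin plus STB, filled circles; control, open squares) as log2 of CPM over the control mean, for 12 genes higher without overlap, 12 genes lower without overlap and the most abundant genes reported as equal within 1.5-fold. Wnk4 libraries with cisplatin plus STB lie at 50.1 to 61.6 CPM and control at 67.6 to 96.7 CPM, and Coch libraries of both groups are mixed.

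Of the 40 lists, the glucocorticoid-responsive genes held the most members at an unadjusted p under 0.05, and these were lower. The lists were chosen with earlier results of these data known, and this one is singled out by its count. It was not tested as a set, so its count beside the background is a description only. Of 21 tested, 19 were lower with cisplatin plus STB and 2 higher, 5 were lower at an unadjusted p under 0.05 (background 0.676%), and the median was -0.43. None of the 21 passed the edgeR adjustment. Per1 is one of the 5. Arrdc2, an arrestin domain protein, had 51.9, 45.3 and 62.9 CPM, against 106, 82.2, 96.6 and 60.4 CPM in control, with 1 overlap, between cisplatin plus STB replicate 3 and control replicate 4 (-0.69, SE 0.18). Sesn1 had 55.1, 52.6 and 83.3 CPM, against 123, 77.5, 96.6 and 66.2 CPM in control (-0.51, SE 0.21). Klf15, a transcription factor induced by glucocorticoids, and Zbtb16, another such factor, both outside the naming rule, differed by -0.43 (SE 0.19) and -0.79 (SE 0.35). Other members were level: Txnip, which binds thioredoxin, and Cdkn1c, a cell cycle inhibitor, were equal within 1.5-fold in all 7, and Sgk1, a kinase of ion transport, in 5 of 7. Txnip had 339, 424 and 521 CPM, against 447, 416, 399 and 499 CPM in control. The score of the list, its mean log2 CPM minus the control mean, was -0.70, -0.66 and -0.04 in the cisplatin plus STB libraries, against 0.16, 0.05, 0.07 and -0.27 in control. Replicate 3 of cisplatin plus STB thus lay within the control range and the other 2 below it. Without replicate 3, 21 of 21 members were lower and 9 were at an unadjusted p under 0.05 (median -0.59). Without replicate 1 the counts were 18 and 2 (median -0.23), and without replicate 2 they were 16 and 2 (median -0.33). Of 21 clock genes, Per1 included, 12 (57.1%) were equal within 1.5-fold, 3 of them in all 7, and 21 were equal within 2-fold. Their median FPKM of 13 lies in the quintile with 78.2% equal. Among the 12 were Dbp (-0.02, SE 0.21) and Nr1d2 (-0.03, SE 0.18), 2 strongly rhythmic genes. Equality held in 3 of 7 repeats for Dbp and in all 7 for Nr1d2.

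Interferon-stimulated and heat shock genes moved with single libraries. The 23 interferon-stimulated genes tested, which act against viruses, were all lower with cisplatin plus STB, with a median of -0.54, and 0 were at an unadjusted p under 0.05. Their scores were -0.56, -0.82 and 0.27 in cisplatin plus STB and 0.18, -0.78, -0.65 and 1.25 in control, so that the highest value was that of control replicate 4. Without that library 11 of the 23 were lower and the median was 0.05. Irf7, the interferon regulatory factor of antiviral responses, had 20.03, 12.6 and 37.3 CPM, against 47.2, 16.2, 14.8 and 162 CPM in control. Of 22 heat shock chaperones 17 were higher and 5 (22.7%) equal (median 0.16), and the median was -0.07 without cisplatin plus STB replicate 3. Their median FPKM of 68.6 lies in the quintile with 81.6% equal. Hsp90aa1, the inducible cytosolic HSP90, had 2362, 1958 and 6618 CPM with cisplatin plus STB, against 2022, 2869, 1994 and 2190 CPM in control. The cisplatin plus STB group of Hsp90aa1 thus holds 1 high library, and the other 2 lay within or just below the control range. Hspa4 and Hspa9, chaperones of the cytosol and of mitochondria, were equal in all 7 (0.00, SE 0.16, and 0.07, SE 0.13).

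**Figure D4:**
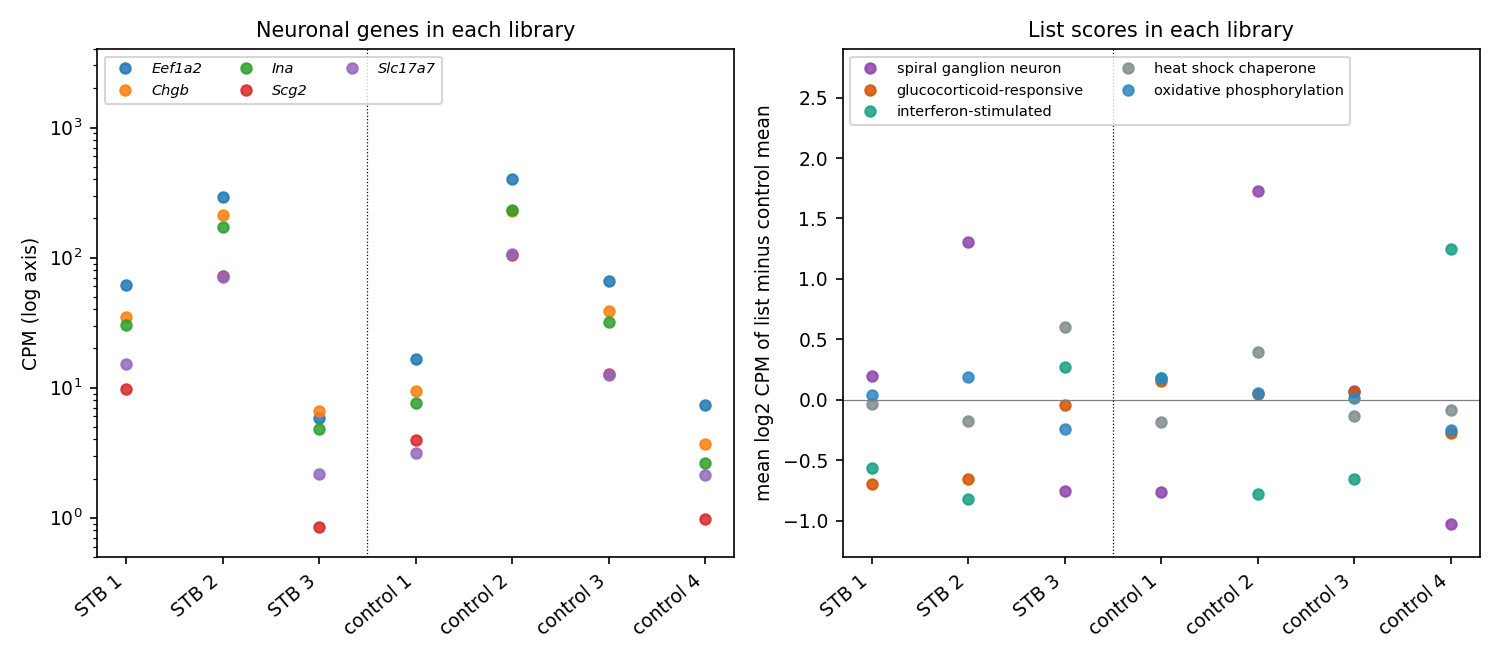
Left, CPM on a log axis of 5 neuronal genes in each library, cisplatin plus STB (STB 1 to 3) left of the dotted line and control right of it. Replicate 2 of each group is highest, for Chgb, a granin of secretory vesicles, at 212 CPM with cisplatin plus STB and 229.5 CPM in control. Right, scores of 5 gene lists in each library (mean log2 CPM of the members minus the control mean), with the interferon-stimulated list at 1.25 in control replicate 4 and the glucocorticoid-responsive list at -0.70 and -0.66 in cisplatin plus STB replicates 1 and 2.

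Genes that stood out in the contrasts with cisplatin are placed beside the untreated level here. At an unadjusted p under 0.05, 682 genes (4.43%) were higher and 812 (5.28%) lower in cisplatin cochleae than in control. The contrasts below come from 1 fit and share libraries, so each is given as its own value. Col17a1 lies at 78278402 to 78355033 and Adap2 at 70848819 to 70875524, both read from the minus strand of their scaffolds. Col17a1, a collagen that anchors epithelia through hemidesmosomes, had 21.2, 22.2 and 13.6 CPM with cisplatin plus STB and 6.24, 7.37, 4.21 and 5.25 CPM with cisplatin, against 16.9, 16.6, 17.6 and 22.8 CPM in control. The log2 fold change of cisplatin plus STB minus control was 0.04 (SE 0.23, 95% interval -0.45 to 0.53), and Col17a1 was equal within 1.5-fold (edgeR adjusted p of equality 0.0363), a call that held in 2 of the 7 repeats. Cisplatin minus control gave -1.68 and cisplatin plus STB minus cisplatin 1.72. Adap2, a GTPase-activating protein for Arf proteins, had 71.0, 49.1 and 75.8 CPM with cisplatin plus STB and 146, 196, 199 and 197 CPM with cisplatin, against 98.9, 84.5, 88.1 and 95.3 CPM in control. Every cisplatin plus STB library was below every control library for Adap2 (-0.49, SE 0.16, unadjusted p = 0.0102 by edgeR), and every cisplatin library above (1.01, SE 0.15). Wnk4 had 99.1, 121, 118 and 121 CPM with cisplatin, above the 67.6 to 96.7 CPM of control, and its values with cisplatin plus STB were below. Its log2 fold changes were -0.56 for cisplatin plus STB minus control, 0.47 for cisplatin minus control and -1.03 for cisplatin plus STB minus cisplatin. Adap2, Col17a1 and Wnk4 were the 3 genes (0.0195%) with an edgeR adjusted p under 0.05 between cisplatin plus STB and cisplatin, and were chosen for that reason. Per1 did not have this pattern, with 236, 211, 241 and 220 CPM in cisplatin cochleae, within the control range (0.02, SE 0.12). The median of the glucocorticoid-responsive list was 0.59 for cisplatin minus control and -0.98 for cisplatin plus STB minus cisplatin, and that of the immediate early list 0.90 and -1.07.

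**Figure D5:**
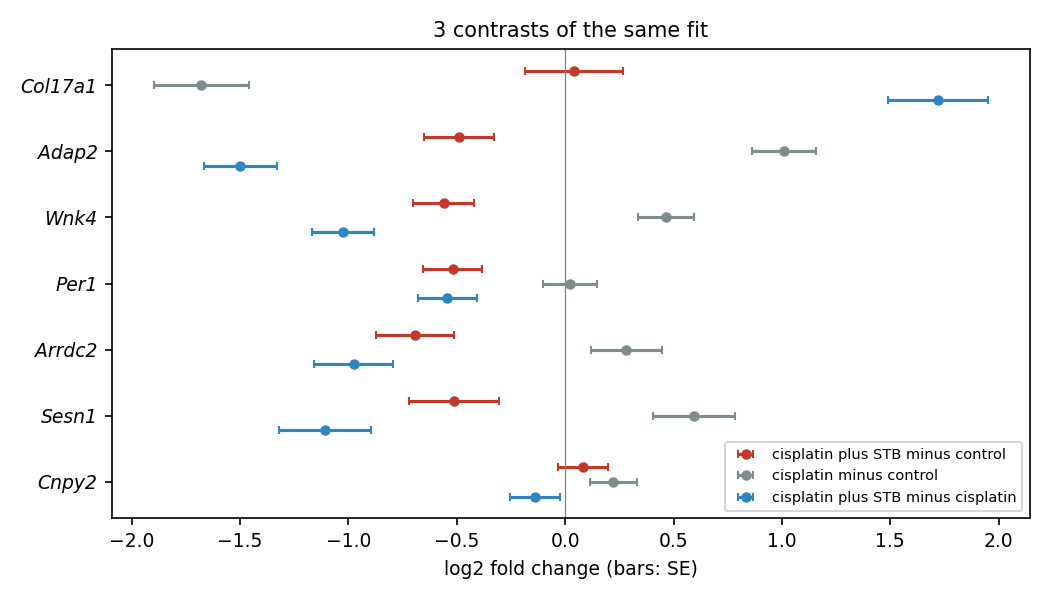
Log2 fold changes with SE bars of 7 genes in 3 contrasts of the same fit, cisplatin plus STB minus control (red), cisplatin minus control (grey) and cisplatin plus STB minus cisplatin (blue). Col17a1 lies at 0.04 for cisplatin plus STB minus control, while Adap2 and Wnk4 lie at -0.49 and -0.56, below control.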

How the data were processed

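Per the labels' protocols, mRNA was enriched on oligo(dT) beads or by removal of ribosomal RNA for strand-marked paired-end libraries. The choice made for each library is not given in the sources used here, nor are the genome build and the strand setting of counting. Cutadapt 1.9.1, HISAT2 2.2.1 and HTSeq 0.6.1 are named, without a role, per the submitters' processing notes. The deposited table holds, per the file headers, the counts and FPKM values of 21481 genes in every library, and 21478 symbols matched the RefSeq table of mCavPor4.1 with identical start and end. The authors' counts are whole numbers without normalization, and the authors' FPKM values follow from those counts, exonic length and library total. FPKM was used only to rank levels.

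Counts were analysed with edgeR 4.0.16 (R 4.3.3). filterByExpr by group kept 15384 genes and removed 6097, library sizes were scaled by TMM, and 1 robust quasi-likelihood model was fitted to all 11 libraries, which then share 1 estimate of the spread. The contrast of interest was cisplatin plus STB minus control. P-values were adjusted by Benjamini-Hochberg over all genes tested, with a threshold of 0.05. Equality was tested by shifting the contrast by 0.585 (log2 of 1.5) in each direction. The computation was tested on simulated counts first. CPM uses TMM library sizes. List scores use log2 CPM with a prior count of 2. Alternatives were DESeq2 1.42.0, limma-voom 3.58.1 with sample quality weights, another normalization, no filter, the 7 libraries alone, a replicate block, other bounds and leaving out each library. A DESeq2 test of equality was chosen after seeing the data.

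The 40 gene lists (986 genes, 904 in the table, 820 tested) and the genes to be named were chosen with earlier results of these data known. Named genes have a symbol other than a LOC symbol. They are, per direction, the 12 genes of smallest p whose groups did not overlap and whose higher group averaged at least 1 CPM, the 12 equal genes with the highest FPKM, per list up to 3 members with the smallest p and up to 3 equal members with the highest FPKM, and Cnpy2, Adap2, Col17a1 and Wnk4. Some genes that the rule names are not reported here. No list was tested as a set.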

Additional observations from a re-analysis of the deposited data

Results flagged for a closer look

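In the control group 79 genes and list scores were examined for a library far from the other 3, and chance flags about 1 in 20 of such groups. Apod, a lipocalin, had 2748 CPM in control replicate 2 and 3417 to 3466 CPM in the other 3, a gap of 0.939 of the group's range on the log2 scale. Pxmp2 had 16.6 CPM in control replicate 2 and 19.4 to 19.96 CPM in the other 3, a gap of 0.845 of the range. The score of the neutrophil and marrow granulocyte list was 0.62 in control replicate 3 and -0.24 to -0.18 in the other 3 (0.933 of the range). The score of the cartilage list was 0.27 in control replicate 4 and -0.12 to -0.07 in the other 3 (0.878 of the range), and the median log2 fold change of that list was -0.13 with this library and 0.07 without it. Groups of 3 libraries were not examined this way.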

How the results depend on the processing

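The count of 0 genes called was the same with DESeq2's size factors, no filter, the 7 libraries alone, the replicate block, DESeq2 and limma-voom, and lay between 0 and 2 when 1 library was left out. The number at an unadjusted p under 0.05, 165, was 266 with the replicate block, 1183 with limma-voom and 142 to 381 with 1 library left out. The 8326 genes equal within 1.5-fold were 7964 with the block, 7908 without a filter, 8741 with the 7 libraries alone, 8596 by DESeq2's test and 5248 to 7328 with 1 library left out, where a smaller group gives less precision. A bound of 1.2-fold gave 0 and a bound of 2-fold 12534. Under the block 7529 of the 7964 were among the 8326. Whether replicate numbers pair the libraries was not settled: deviations from the group mean correlated at 0.0708, 0.358 and -0.0119 for numbers 1, 2 and 3. Cisplatin plus STB replicates 1 and 2 correlated best with the control of their own number, and replicate 3 with control replicate 4 (0.302). The log2 fold change of Col17a1, 0.04, was -0.04 without cisplatin plus STB replicate 1, -0.0876 without replicate 2, and -0.00722 and -0.00619 without control replicates 1 and 2, and its highest value was 0.233, without cisplatin plus STB replicate 3. Of 39 named genes 6 changed sign under some setting, in 12 of 507 recomputed values: Col17a1, Coch (-0.19 to 0.04), Col9a2 (-0.25 to 0.04), Rps24 (-0.0071 to 0.23), Rps27 (-0.16 to 0.03) and Rps3a (-0.014 to 0.20). List medians moved by more than the spread of their libraries in 12 of 520 recomputed values, and 279 of 1089 calls of equality were lost under an alternative. The cause was not tested. In the lowest quintile of FPKM, where the median SE was 0.46, 5.46% of genes could be called equal.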

Other observations

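Some neuronal genes were among those that varied most within groups. Of 10506 named genes with at least 10 CPM, 118 had a standard deviation within groups above 1 on the log2 scale, where the median gene had 0.212, a cut chosen after the values were seen. Scg2, a granin of neurosecretory vesicles, had 9.76, 71.6 and 0.843 CPM with cisplatin plus STB, against 3.92, 105, 12.7 and 0.984 CPM in control. Slc17a7, the vesicular glutamate transporter, had 15.2, 71.5 and 2.17 CPM, against 3.17, 106, 12.5 and 2.13 CPM in control. Among the 15 most variable genes Dnase1, a secreted DNA-cleaving enzyme, went its own way, with 74.2, 0.528 and 60.3 CPM against 18.7, 18.0, 2.02 and 3.88 CPM.

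Both genes called without cisplatin plus STB replicate 3, named after their values were seen, set that library apart. LOC134471432 had 29.1, 17.4 and 7.29 CPM with cisplatin plus STB, against 5.16, 5.93, 6.24 and 5.74 CPM in control, with a log2 fold change of 1.64 (SE 0.34) in all libraries and 2.01 without replicate 3 (edgeR adjusted p = 0.0263). Hoga1, a mitochondrial enzyme of hydroxyproline breakdown, had 1.23, 1.59 and 29.5 CPM, against 28.2, 27.7, 34.2 and 10.7 CPM in control. Its log2 fold change was -1.22 (SE 0.95) and, without replicate 3, -4.15 (edgeR adjusted p = 0.0364). Among surface epithelium markers Tp63, the p63 factor of basal epithelial cells, had 0.194, 0.211 and 0.120 CPM with cisplatin plus STB, against 2.55, 3.25, 2.41 and 0.328 CPM in control. Cisplatin plus STB libraries lay below all control libraries for Tp63, with control replicate 4 close to them (-3.54, SE 1.18, edgeR adjusted p = 1.00), and the other 13 surface epithelium markers tested had log2 fold changes between -0.26 and 0.35.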
